A study of Mus musculus with 2 samples.

Results

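The antiviral effector genes described here are Bst2, Mx1, Mx2, Rsad2, Cmpk2, Ifi27, Ifi35, Ifi44, Apobec3 and Xaf1. They were taken from the gene table by symbol, and each symbol stood on 1 locus, so they are 10 of the 54680 loci in the table. They were selected on their FPKM values and ratios in these same libraries, as effectors outside the OAS, IFIT and Schlafen families, the guanylate-binding proteins and the immunity-related GTPases, so their levels and ratios are a description with no test. Expression was measured by RNA sequencing of total RNA from CT26 cells, a colon carcinoma line of BALB/c mice. The knockdown cells, CT26shSetdb1, received a lentivirus that carries a short hairpin RNA against Setdb1, a histone H3 lysine 9 methyltransferase. The control cells, CT26shCtrl, are labelled wild type and received the lentivirus with an empty knockdown vector, so cells of both groups had been infected. Only the knockdown cells are described as carrying a hairpin, and the part of a hairpin as such was not tested. Both cultures were grown in RPMI medium with serum and collected at day 6, at which point the knockdown cells are titled differentiated. Each group had 1 library, so no difference below has a replicate check and all of them compare these libraries.

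Effector genes of the interferon response encode proteins that block a step of virus replication or help to kill the infected cell. Interferon binds its receptor, the kinases Jak1 and Tyk2 activate transcription factors, among them Stat2, which joins Irf9 in a complex that binds the interferon-stimulated response element (ISRE) in promoters. Irf7 and other interferon regulatory factors bind closely related sequences, and viral RNA or endogenous double-stranded RNA can start the response. In tumour cells the response is known to follow the loss of factors that silence endogenous retroviruses, Setdb1 among them.

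The libraries held 18421604 reads (CT26shCtrl, shCtrl below) and 19045830 reads (CT26shSetdb1, shSetdb1 below). Setdb1 was at 10.4 FPKM in the shCtrl library and 2.47 FPKM in the shSetdb1 library, 23.7% of control. FPKM is the read count of a gene divided by how long its model is and by depth, here 1 depth shared by both libraries, so FPKM is not corrected for the difference between their totals. Of 10 colon epithelial markers, Epcam and Cdh1, which define epithelium, had 0 reads in both libraries, and 7 in all were under 1 FPKM. The other 3, all keratins and named after their values were seen, were higher in the shSetdb1 library: Krt18 went from 37.7 to 90.0 FPKM, Krt20 from 5.07 to 35.6 FPKM and Krt19 from 0.0288 to 1.53 FPKM. The sum of the 10 was 43.2 FPKM in shCtrl and 127.9 FPKM in shSetdb1. Of 10 immune cell markers, 6 had 0 reads in both libraries, and Ptprc, the marker of all white blood cells, had 0 reads in the control and 4 in the shSetdb1 library. The sum of these 10 markers was 10.6 FPKM in the control and 100.4 FPKM in the shSetdb1 library. Nearly all of it was Cd68, a lysosomal protein made by macrophages and other cells, at 10.4 and 100.2 FPKM, named after its values were seen. The part of other cells in the results was not tested. Reads of mitochondrial protein-coding genes made up 0.993% of the control and 0.535% of the shSetdb1 library.

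Promoters of members are shown first, because the ISRE is the sequence through which these genes are known to be switched on. The rule that chose them did not use sequence. Genes chosen as interferon effectors can still hold the ISRE more often than others by that choice alone. Promoter windows from RefSeq on GRCm38.p6, from 250 bases before to 50 bases after the annotated start, were matched by symbol for 7 of the 10 genes, with 2 windows for Apobec3. No window was matched by symbol for Mx1, Mx2 and Ifi27, so the motif search does not cover them. Each window was searched on both strands for the ISRE core (GAAA and GAAA with 2 bases of any kind between them), for a longer form of it (the core followed by CT), and for TTCNNNGAA, the gamma-activated site of genes induced by interferon gamma, which reads the same on both strands. The 250 bases before the start are printed for 5 genes, 5′ to 3′ on the strand of the gene. The first 3 hold an ISRE core, Cmpk2 is the divergent neighbour of Rsad2, and Xaf1 had a high ratio with no ISRE core. Capitals mark the ISRE core in either direction. In Xaf1 they mark AANNGAAA, the shorter site of interferon regulatory factors, a motif added after the promoters were seen.
Bst2, chr8:71537473-71537722, minus strand: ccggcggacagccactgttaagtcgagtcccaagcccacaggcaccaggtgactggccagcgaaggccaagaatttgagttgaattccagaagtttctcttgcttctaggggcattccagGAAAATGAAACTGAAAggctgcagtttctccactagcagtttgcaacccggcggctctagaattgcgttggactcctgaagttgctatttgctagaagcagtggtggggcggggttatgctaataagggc
Rsad2, chr12:26456453-26456702, minus strand: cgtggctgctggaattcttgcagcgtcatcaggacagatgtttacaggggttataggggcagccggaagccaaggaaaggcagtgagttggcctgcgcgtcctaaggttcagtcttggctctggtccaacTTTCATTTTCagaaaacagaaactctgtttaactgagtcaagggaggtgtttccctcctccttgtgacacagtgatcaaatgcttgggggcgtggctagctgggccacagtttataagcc
Apobec3, chr15:79892158-79892407, plus strand: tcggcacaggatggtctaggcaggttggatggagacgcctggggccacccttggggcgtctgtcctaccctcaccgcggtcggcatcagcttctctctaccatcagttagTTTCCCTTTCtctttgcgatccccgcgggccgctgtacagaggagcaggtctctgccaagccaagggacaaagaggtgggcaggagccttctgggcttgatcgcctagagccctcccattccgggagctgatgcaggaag
Cmpk2, chr12:26468965-26469214, plus strand: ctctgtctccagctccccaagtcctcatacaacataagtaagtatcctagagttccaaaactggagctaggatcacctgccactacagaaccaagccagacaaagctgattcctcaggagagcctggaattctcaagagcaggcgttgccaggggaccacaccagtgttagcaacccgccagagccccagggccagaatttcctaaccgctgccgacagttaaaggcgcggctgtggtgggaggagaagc
Xaf1, chr11:72301379-72301628, plus strand: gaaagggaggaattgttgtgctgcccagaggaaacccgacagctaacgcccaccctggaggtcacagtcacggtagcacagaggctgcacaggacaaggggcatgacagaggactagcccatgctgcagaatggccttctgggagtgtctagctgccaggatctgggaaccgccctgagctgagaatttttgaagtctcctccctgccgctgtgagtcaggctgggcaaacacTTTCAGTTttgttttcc

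An ISRE core was found in 3 of the 7 genes, Bst2, Rsad2 and Apobec3, and in 1131 of all 32851 promoter windows of this length (3.44%). Counted by gene, it was found in 289 of the 7649 genes at 1 FPKM or more with a matched window (3.78%). Positions are given from the annotated start, with the base before it as -1. Bst2 held 2 overlapping cores, which begin at -130 and -124, and a gamma-activated site at -136 that runs into the first of them. Rsad2 held 1 core at -120 and Apobec3 held 1 core at -140 in its first window, both on the opposite strand, while the second Apobec3 window held none. The longer form was found in Bst2 and Apobec3, and in 89 of all windows (0.271%). The gamma-activated site was found in Bst2 and in Ifi35, where it begins at base 8 after the start, and in 8.30% of all windows. The shorter AANNGAAA, which every ISRE core contains, was found in 6 of the 7 genes, all but Cmpk2, and in 23.9% of all windows. A match is a stretch of letters and no evidence of binding. Only exact matches were counted, so a window without a match can still hold a variant of the site. The promoter matches did not follow the ratios given below: Apobec3 held the longer form of the ISRE at a read ratio of 1.06, and Cmpk2 held none of the 4 motifs at 10.7.

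The comparison asked how far the transcripts of the effector genes differed between the knockdown and the shCtrl library. Their reads summed to 7118 in the control and 24537 in the shSetdb1 library, which is 386 and 1290 RPM (reads scaled to a common library size). Ratios below are read ratios, knockdown over control, each relative to its library's total, with a 95% exact binomial (Clopper-Pearson) interval. The intervals cover counting error alone, because each group had 1 library. PCR copies of 1 molecule are counted as separate reads here, so the intervals can be too narrow. The interval lay above 1 for 8 genes, held 1 for Apobec3 and lay below 1 for Ifi27. The share of all genes whose interval leaves out 1 was not computed. At this depth small ratios can do so, as for Vat1, a neighbour described below, at 1.23 (1.20 to 1.25). The genes were also chosen with their ratios known, so nothing is read from this count. In bulk RNA, more RNA per cell and more cells that make it cannot be told apart.

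**Figure D1:**
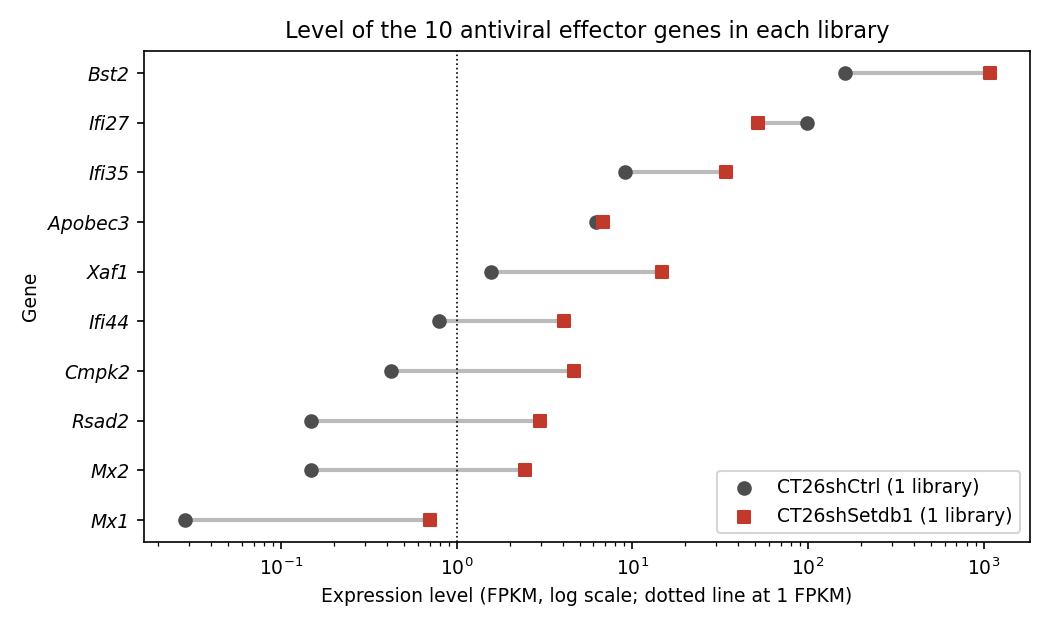
Expression level of each effector gene in the shCtrl library (circle) and the shSetdb1 library (square), in FPKM on a log axis, ordered by the control level, with a grey line joining the 2 values of a gene. The square lies right of the circle for 9 genes and left of it for Ifi27, which went from 98.5 to 52.1 FPKM, and the symbols of Apobec3 (6.20 and 6.78 FPKM) nearly touch.

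Bst2 (ENSMUSG00000046718, chromosome 8, 71534255 to 71537456, GRCm38), which encodes tetherin, a membrane protein that holds budding enveloped viruses at the cell surface, was the most abundant of the 10 genes. It was at 162 FPKM (2735 reads) in the shCtrl library and 1077 FPKM (18215 reads) in the shSetdb1 library, a read ratio of 6.44 (6.19 to 6.71). Its level ranked 348th in the shCtrl library among the 10671 genes with 1 FPKM or more in either library, and 37th in the shSetdb1 library. Tetherin transcripts were therefore abundant in the shCtrl library and among the most abundant in the shSetdb1 library. Bst2 made up 58.0% of the summed FPKM of the 10 genes in the control and 89.8% in the shSetdb1 library, so a sum over them mostly reads this gene. Without Bst2 and Ifi27, the other 8 genes summed to 18.4 FPKM in the control and 70.4 FPKM in the shSetdb1 library.

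Mx1 and Mx2 encode dynamin-like GTPases that trap viral nucleoproteins, of influenza virus and of other RNA viruses. Most laboratory mouse strains carry broken copies of Mx1, and annotations of the Mx genes differ: the deposited table lists Mx1 as protein-coding and Mx2 as a polymorphic pseudogene, while RefSeq lists both as transcribed pseudogenes. Mx1 (chromosome 16, 97447035 to 97462907) had 2 reads in the shCtrl library and 50 in the shSetdb1 library, 0.0282 and 0.705 FPKM. Its read ratio of 24.2 was the highest of the 10, but with 2 control reads the interval ran from 6.35 to 205. Mx2 (chromosome 16, 97535308 to 97560900) went from 10 reads (0.148 FPKM) to 166 reads (2.45 FPKM), a ratio of 16.1 (8.51 to 34.1). Both Mx genes were thus barely detected in the shCtrl library and remained low in the shSetdb1 library, where Mx2 was 3.48 times as high as Mx1 per length. They lie head to head with 72.4 kb between them, and of the 4 loci in that gap only Fam3b had reads, 2 in the control and 0 in the shSetdb1 library.

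Rsad2 and Cmpk2 are neighbours whose enzymes work on the same nucleotides. Cmpk2 is a mitochondrial kinase that phosphorylates CMP and UMP, and Rsad2 encodes viperin, which turns CTP into a chain terminator of viral RNA polymerases. Rsad2 (ENSMUSG00000020641, chromosome 12, 26442746 to 26456452) had 12 reads (0.148 FPKM) in the control and 242 reads (2.98 FPKM) in the shSetdb1 library, a ratio of 19.5 (11.0 to 38.3). Cmpk2 (ENSMUSG00000020638, chromosome 12, 26469204 to 26479837) had 33 reads (0.423 FPKM) in the control and 364 reads (4.67 FPKM) in the shSetdb1 library, a ratio of 10.7 (7.46 to 15.7). Both were low in the shCtrl library and above 1 FPKM in the shSetdb1 library only, and their intervals overlap. Cmpk2 was the higher of the 2 per length in both libraries, 2.86 times Rsad2 in the control and 1.57 times in the shSetdb1 library. The genes are transcribed away from each other from starts 12.8 kb apart, with no other locus of the table between them.

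Apobec3 (ENSMUSG00000009585, chromosome 15, 79891659 to 79915906) encodes a cytidine deaminase packaged into retroviruses such as murine leukaemia virus, whose DNA it mutates. It had 1098 reads (6.20 FPKM) in the control and 1200 reads (6.78 FPKM) in the shSetdb1 library, a ratio of 1.06 (0.973 to 1.15). Relative to library totals a difference was not detectable at this depth, and the interval excludes a change of 1.5-fold in either direction for these libraries. Without that scaling, the log2 ratio of (FPKM + 1) was 0.11, with a counting interval of 0.01 to 0.21. Whether a small difference was seen thus turned on the scaling. The last 100 bases of Apobec3 overlap Cbx7 on the other strand, which had 1143 reads in the control and 971 in the shSetdb1 library. How reads in the overlap were counted is not given in the sources used here. The gene model of 9454 bases is 3.10 times as long as the longest annotated transcript, against 1.03 (Rsad2) to 1.81 times (Xaf1) for the others. The FPKM of Apobec3 can thus understate its transcripts relative to the others.

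Xaf1, Ifi35 and Ifi44 encode effectors that act inside the cell. Xaf1 (ENSMUSG00000040483, chromosome 11, 72301629 to 72313733), whose protein binds the apoptosis inhibitor Xiap and favours cell death, had 137 reads (1.56 FPKM) in the control and 1302 reads (14.8 FPKM) in the shSetdb1 library. Its ratio was 9.19 (7.70 to 11.0). Ifi35 (ENSMUSG00000010358, chromosome 11, 101448407 to 101458698), which encodes a partner of the protein Nmi, had 294 reads (9.09 FPKM) in the control and 1097 reads (33.9 FPKM) in the shSetdb1 library, a ratio of 3.61 (3.17 to 4.12). Ifi44 (ENSMUSG00000028037, chromosome 3, 151730922 to 151749960), which encodes a cytoplasmic protein with antiviral activity, had 91 reads (0.793 FPKM) in the control and 469 reads (4.09 FPKM) in the shSetdb1 library, a ratio of 4.98 (3.97 to 6.31). All 3 were higher in the shSetdb1 library, and Ifi35 had the highest level and the lowest ratio of them. Ifi44l, the neighbouring paralog of Ifi44, named after its values were seen, had 2 reads in the control and 10 in the shSetdb1 library (ratio 4.84, 1.03 to 45.4).

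Ifi27 (ENSMUSG00000064215, chromosome 12, 103434211 to 103440239) encodes a small hydrophobic protein of a family linked to mitochondria and cell death, and was the gene that was lower in the shSetdb1 library. It had 2706 reads (98.5 FPKM) in the control and 1432 reads (52.1 FPKM) in the shSetdb1 library, a ratio of 0.512 (0.480 to 0.546). It was second in level to Bst2 in both libraries, with Bst2 at 1.64 times Ifi27 in the control and 20.7 times in the shSetdb1 library. Its paralog Ifi27l2a (ENSMUSG00000079017, chromosome 12, 103442167 to 103443680) lies 1.93 kb beyond it on the opposite strand. Ifi27l2a had 320 reads (36.9 FPKM) in the control and 6634 reads (765 FPKM) in the shSetdb1 library, a ratio of 20.1 (17.9 to 22.5). The 2 paralogs thus lay on opposite sides of 1, and their order reversed: Ifi27 was the higher of the pair in the shCtrl library and Ifi27l2a in the shSetdb1 library. The third family gene, Ifi27l2b, had 0 reads in the control and 1 in the shSetdb1 library.

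**Figure D2:**
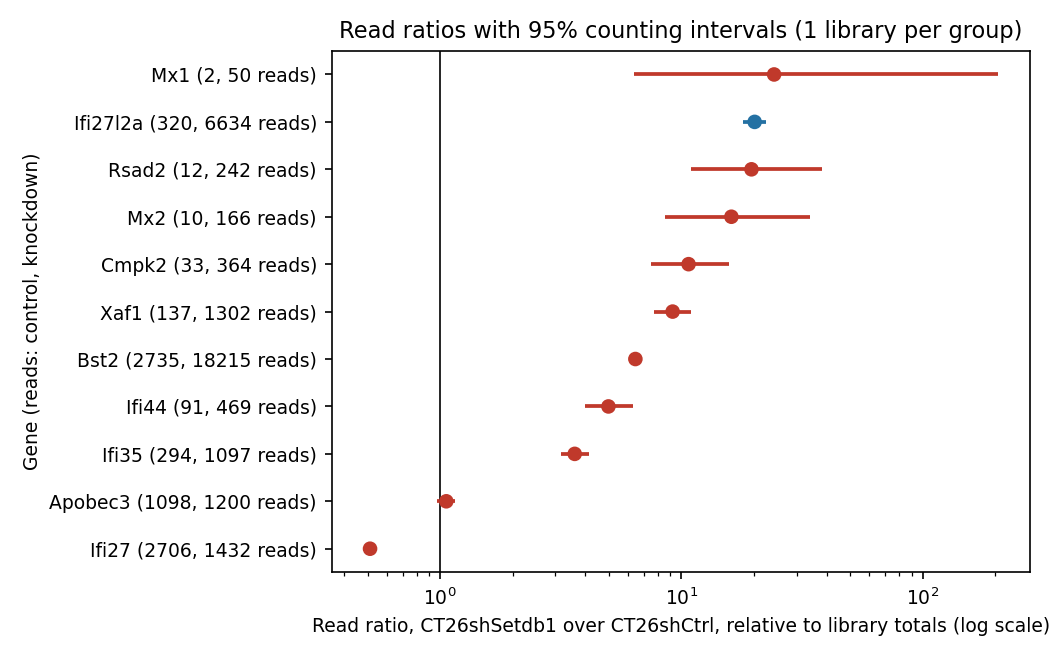
Read ratio of each effector gene (red) and of Ifi27l2a (blue), knockdown over control relative to library totals, on a log axis, with 95% counting intervals as lines and the reads of both libraries beside each name. Intervals are widest for Mx1 (6.35 to 205), which had 2 control reads, and 8 effector genes lie wholly right of 1 while Ifi27 lies left of it at 0.512.

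The order of the ratios was Mx1, Rsad2, Mx2, Cmpk2, Xaf1, Bst2, Ifi44, Ifi35, Apobec3 and Ifi27. Differences between neighbours in this order were not tested, and intervals that overlap do not show that 2 ratios are alike. The intervals of Mx1, Rsad2, Mx2 and Cmpk2 overlap one another, that of Cmpk2 also overlaps that of Xaf1, that of Bst2 overlaps that of Ifi44, and that of Ifi44 overlaps that of Ifi35. Gaps between neighbouring intervals lie between Xaf1 (from 7.70) and Bst2 (to 6.71), between Ifi35 (from 3.17) and Apobec3 (to 1.15), and between Apobec3 (from 0.973) and Ifi27 (to 0.546).

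On the scale used for all genes, the log2 ratio of (FPKM + 1), which understates differences of low genes, the order changed: Bst2 was highest at 2.73, then Xaf1 at 2.63 and Cmpk2 at 1.99. Rsad2 and Ifi35 were both at 1.79, Mx2 at 1.59, Ifi44 at 1.5, Mx1 at 0.73, Apobec3 at 0.11 and Ifi27 at -0.91. Of the 10 genes, 9 reached 1 FPKM in at least 1 library. Mx2, Rsad2, Cmpk2 and Ifi44 did so in the shSetdb1 library only, so their direction on this scale was in part set by that filter. Of the 9, 8 were higher in the shSetdb1 library, against 49.6% of the 10671 genes so filtered. Of the 9, 7 were at least 2-fold higher, against 6.81% of those genes, and 0 were at least 2-fold lower, against 4.85%. As the list was drawn up with these ratios known, nothing is read from this difference. The median log2 ratio was 1.79 over the 9 genes and 1.69 over all 10, beside -0.00039 over the 10671 genes.

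**Figure D3:**
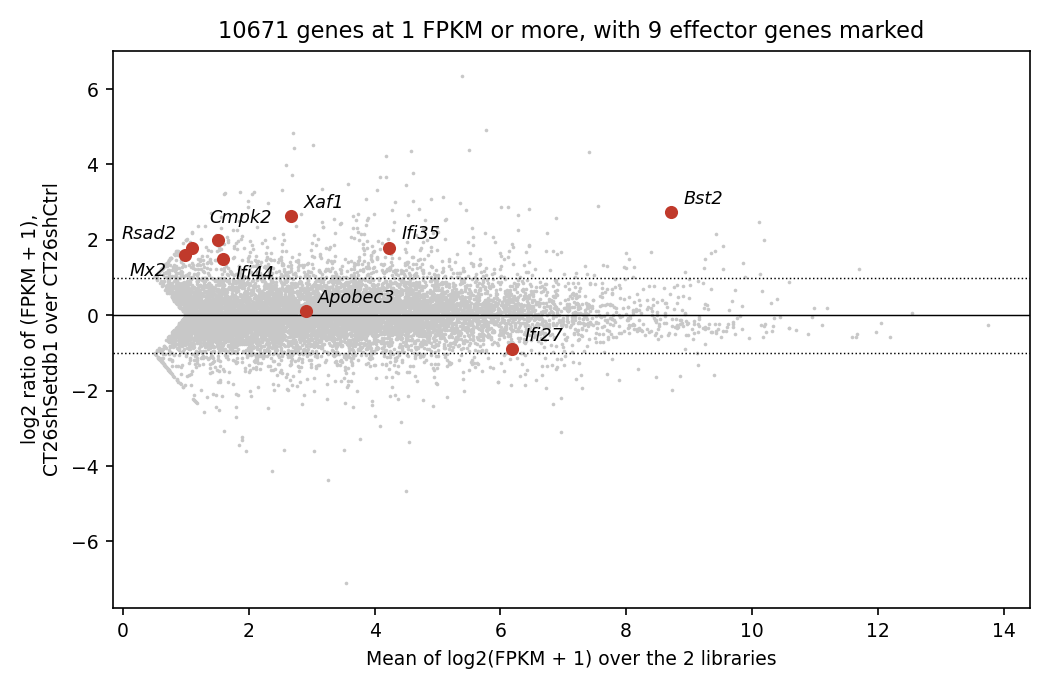
Log2 ratio of (FPKM + 1), knockdown over control, against the mean of log2(FPKM + 1) over both libraries for the 10671 genes that reached 1 FPKM in either library (grey), with the 9 effector genes so filtered in red and dotted lines at 2-fold. Bst2 (2.73) stands high among abundant genes, 6 others lie above the upper dotted line, Apobec3 (0.11) lies at 0 and Ifi27 (-0.91) just above the lower one.

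The steps upstream of the effectors were described with gene lists that leave the 10 genes out, over genes that reached 1 FPKM. Counts at 2-fold and medians of lists and neighbours are on the log2 ratio of (FPKM + 1). Of 20 interferon ligand genes, 19 had 0 reads in both libraries, which allows up to 3 reads each. Ifnb1, the gene of interferon beta, had 1 read in the control and 5 in the shSetdb1 library (ratio 4.84, 0.541 to 229), so a difference was not detectable at this depth. Transcripts of the receptors and their kinases were present in both libraries. Of the 8 genes, 0 differed 2-fold in either direction, against 11.7% of the 10671 genes at 1 FPKM. Their median log2 ratio of (FPKM + 1) was 0.14. That scale shrinks differences of low genes. The lowest was the kinase Jak2 at -0.82, with 239 and 94 reads (read ratio 0.380, 0.296 to 0.485), and the highest the receptor chain Ifngr2 at 0.95, with 360 and 764 reads (read ratio 2.05, 1.81 to 2.33). Ligand transcripts were at or near 0 in these libraries, both collected at day 6. Earlier times were not sampled, and the part of interferon in the effector levels was not tested.

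Transcription factors of the response were all higher in the shSetdb1 library, 4 of 8 by 2-fold or more, with a median log2 ratio of 1.21. Beside this and the next lists, 49.6% of the 10671 genes were higher and 6.81% at least 2-fold higher. Irf5 (0.423 and 2.85 FPKM) and Irf8 (0.621 and 2.21 FPKM), named after their values were seen, reached 1 FPKM in the shSetdb1 library only. Their direction was thus in part set by the filter. The lists were chosen with earlier results known, so nothing is read from the counts. Irf7 went from 9.02 to 300.1 FPKM (log2 ratio 4.91), Stat2 from 5.21 to 27.5 FPKM (2.20) and Irf9 from 6.34 to 26.0 FPKM (1.88). Irf3, which is activated by phosphorylation, was lowest at 0.20. Feedback inhibitors were higher for 6 of 6 genes, 3 of them by 2-fold or more (median 0.93), from 0.33 for Ptpn2 to 3.10 for Usp18, the protease that removes Isg15. Among RNA sensors and adaptors, 5 of 7 were at least 2-fold higher (median 1.33). Dhx58, a helicase that regulates RNA sensing, was highest at 3.35 and Mavs, the adaptor of the sensors, lowest at -0.11. Zbp1 (0.832 and 17.4 FPKM) and Ifih1 (0.621 and 1.65 FPKM), named after their values were seen, reached 1 FPKM in the shSetdb1 library only.

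Other antiviral effectors, outside the 10 genes, were mixed. Of the 20 found, 15 reached 1 FPKM, of which 12 were higher in the shSetdb1 library and 3 were lower. At least 2-fold higher were 6, against 6.81% of the 10671 genes, and the median was 0.94. Rtp4, an interferon-induced chaperone of receptors, was highest at 2.56 (128 and 951 reads). Zc3hav1, the zinc finger antiviral protein that binds CpG-rich RNA, was lowest at -0.53 (2621 and 1780 reads). Ifi27 was thus not the sole antiviral gene that was lower in the shSetdb1 library, and the read ratio interval of Apobec3 held 1.

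Partners and paralogs of the 10 genes mostly lay near 0, with a median of 0.22. Of 9 at 1 FPKM, 1, Ifi27l2a, was at least 2-fold higher, against 6.81% of the 10671 genes. Nmi, the partner of Ifi35, had 75 reads in the control and 103 in the shSetdb1 library (ratio 1.33, 0.977 to 1.81), while Ifi35 was at 3.61. Xiap, which Xaf1 binds, had 309 reads in the control and 219 in the shSetdb1 library (ratio 0.686, 0.574 to 0.818), so the 2 partners lay on opposite sides of 1. Cmpk1, the cytosolic kinase of the same nucleotides as Cmpk2, had 447 and 532 reads (ratio 1.15, 1.01 to 1.31). Dnm1l, a dynamin-like GTPase of mitochondrial fission related to the Mx proteins, was lowest with a log2 ratio of -0.57.

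**Figure D4:**
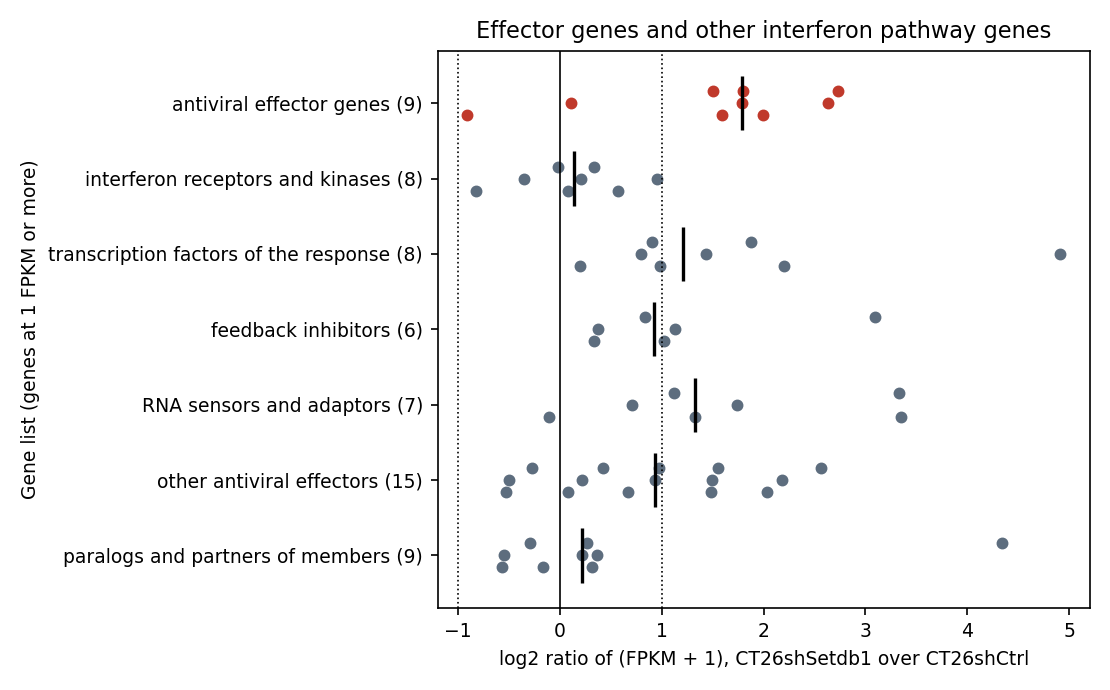
Log2 ratio of (FPKM + 1), knockdown over control, for the 9 effector genes at 1 FPKM or more (red) and the genes of 6 other lists (grey), with the number of genes in brackets, black bars at the medians and dotted lines at 2-fold. The medians run from 0.14 for receptors and kinases to 1.79 for the effector genes, and the isolated points at the right are Irf7 (4.91) and Ifi27l2a (4.34).

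Whether other genes around each locus differed too was described with the nearest gene on either side that reached 1 FPKM. This gave 16 genes, of which 10 were higher and 6 lower, against 49.6% higher among the 10671 genes at 1 FPKM. Of the 16, 2 were at least 2-fold higher, against 6.81% of those genes. The median log2 ratio of the 16 neighbours was 0.17. The highest was Ifi27l2a (4.34) and the lowest Mybbp1a, a nucleolar transcription regulator 128 kb from Xaf1, at -0.997. Of the neighbours, 6 lay within 10 kb, and the other five beside Ifi27l2a, named after their values were seen, were all under 2-fold: Mvb12a beside Bst2 at 0.50, Ddx24 beside Ifi27 at 0.40, Vat1 at 0.34 and Rpl27 at -0.24 beside Ifi35, and Cbx7 at -0.21 beside Apobec3. Vat1 ends 47 bases from Ifi35, and its ratio was 1.23 (1.20 to 1.25) beside 3.61 for Ifi35. Rsad2 and Cmpk2 had no other gene at 1 FPKM within 1250 kb on the lower side of Rsad2 and 2150 kb on the higher side of Cmpk2. The gene on the lower side, the long noncoding Gm47705, had 1 read in the control and 53 in the shSetdb1 library (ratio 51.3, 8.81 to 2060).

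**Figure D5:**
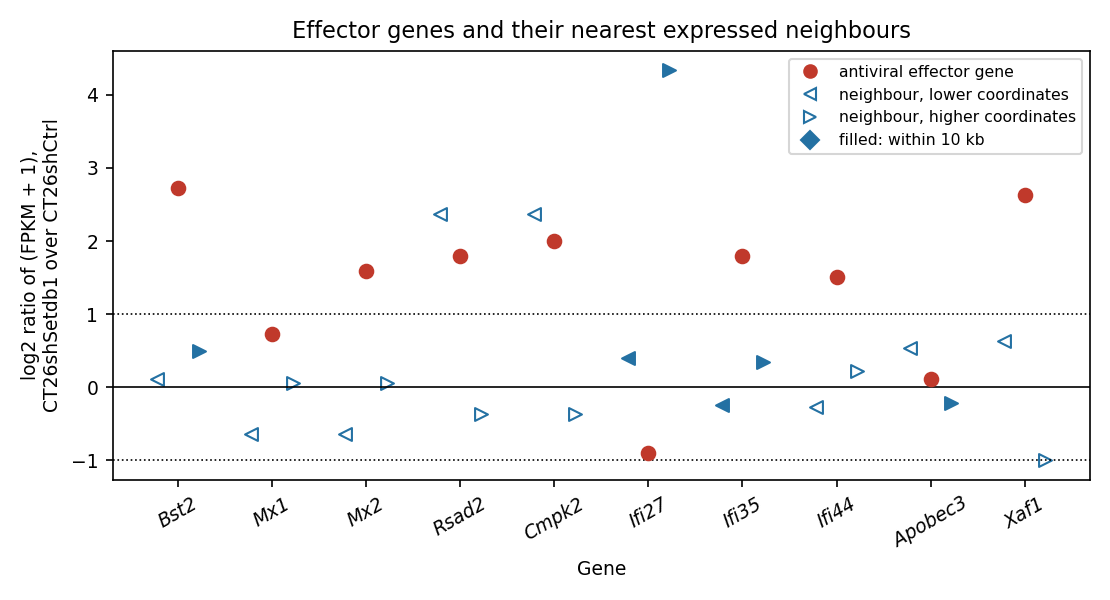
Log2 ratio of (FPKM + 1), knockdown over control, for each effector gene (red circles, Mx1 included) and its nearest neighbour at 1 FPKM or more at lower (left triangles) and higher coordinates (right triangles), filled where the neighbour lies within 10 kb. Filled triangles lie between -0.24 and 0.50 except Ifi27l2a beside Ifi27 at 4.34, while Ifi27 itself is at -0.91.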

How the data were processed

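The authors deposited 1 table of FPKM values, per the file headers and name, for both libraries, with the position and length of each gene model. CASAVA, HISAT2, featureCounts 1.5.0-p3 and the build GRCm38 are named in the submitters' processing notes. The strand setting and the treatment of reads that match several genes are not given in the sources used here. Positions had the same start and end as GENCODE M21 (GRCm38) for 98.3% of 54495 shared IDs. FPKM times gene length gave whole multiples of 1 read, within 0.01, for 100% of the values above 0. The step was the same in both libraries and corresponds to 1 shared depth of 18731117 reads, so FPKM ratios carry the ratio of the totals, while read ratios were computed relative to each library's own total.

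Log2 ratios used a pseudocount of 1, the filter was 1 FPKM in at least 1 library, and a gene was counted at 2-fold. With 1 library per group there was no test. Alternatives were a pseudocount of 0.1, no filter or 5 FPKM, 4 scalings, thresholds of 1.5-fold and 4-fold, means, and a promoter of 150 bases. The 10 genes and all lists were chosen with earlier results of these data known. The genes named were Setdb1, the 10 effectors, the highest and lowest gene of each pathway list and of the neighbours, and Stat2, Irf9, Irf7, Ifnb1, Ifi27l2a, Ifi27l2b, Nmi, Xiap and Cmpk1. Of this rule, 1 gene is not reported here. Others are said to be named after their values were seen. The symbol Shfl found no locus. Of 4 endothelial markers, 3 had 0 reads in both libraries and 1 had 1 read in the control. The calculations were tested on simulated data. The tools were matplotlib 3.10.9, scipy 1.17.1, pandas 2.3.3 and numpy 2.4.6 under Python 3.11.15.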

Additional observations from a re-analysis of the deposited data

How the results depend on the processing

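The looser promoter motif and the read ratios without a pseudocount were added after the data were seen, and the other alternatives before. The effector genes kept their direction under all alternatives run, scalings included. With a pseudocount of 0.1 their median was 2.73, that of the transcription factors 1.85 and that of the RNA sensors 1.51, since a smaller pseudocount shrinks low values less. The mean of the effector genes was 1.47. The filter at 5 FPKM leaves fewer genes, of the effector genes only Bst2, Xaf1, Ifi35, Apobec3 and Ifi27. Of these, 3 were at least 2-fold higher, against 7.63% of all genes at that filter. With this filter the transcription factors were at 1.88, the RNA sensors at 1.74 and the other effectors at 1.21. The neighbours were then at -0.03, a reversal of a value near 0. Without a filter the neighbours were at 0.00, the RNA sensors at 1.22 and the other effectors at 0.45, because genes with few reads were added. Under upper-quartile scaling the RNA sensors were at 1.24. At 4-fold, 2 effector genes were counted as higher, against 1.09% of the 10671 genes, and at 1.5-fold 1 was lower, against 14.3%. The looser motif was found in 6 genes in place of 3. Interferon ligands had no gene at 1 FPKM, so no median was given. No paired analysis was possible because there was a single library in each group, which also left no library to leave out. Depth limits Mx1, Mx2 and Rsad2, with 2, 10 and 12 control reads.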

Other observations

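Promoter windows were matched for 7649 genes at 1 FPKM or more, and the share with an ISRE core was described by how the gene differed between the libraries. The core was found in 43 of 467 genes at least 2-fold higher in the knockdown library (9.21%), in 14 of 307 at least 2-fold lower (4.56%) and in 232 of 6875 in between (3.37%). The longer form with CT was found in 23 (4.93%), 2 (0.651%) and 12 (0.175%) genes of the same 3 classes. The gamma-activated site was found in 9.21%, 8.47% and 7.61% of them. No test was made, and genes are not independent replicates. Most genes at least 2-fold higher held no exact match to the ISRE core in this window, as did Cmpk2, Ifi35, Ifi44 and Xaf1.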
